A study of Drosophila melanogaster with 12 samples.

Results

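The effect of adding dsRNA against Sam-S to dsRNA against Sin3A was measured in Drosophila S2 cells by setting the samples labelled double knockdown against the samples labelled SIN3 knockdown. These are 6 of the 12 samples of the study. S2 cells are an embryonic line that resembles hemocytes, the phagocytic blood cells of the fly, and every sample is labelled wild type. Cells of every group took up double-stranded RNA (dsRNA) over 4 days: against Sin3A alone, against Sin3A and Sam-S together, against Sam-S alone, or against GFP, a control that has no target in these cells. Each group had 3 samples, which the authors combined into 1 pooled FPKM (fragments per transcript length and library size) per gene row. No value therefore carries a spread between replicates.

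The authors deposited no direct test of the double knockdown against the SIN3 knockdown. The comparison was built from their SIN3 and double tables, each of which holds its own GFP column. Of the 14542 gene rows of the SIN3 table, 8012 were tested by the authors in both tables, and 7992 of these had a value above 0 in every column used. Values of the double and SAM-S groups were divided by the median ratio of the GFP columns, 1.01 and 1.00, so that all 4 groups share the GFP scale of the SIN3 table. Ratios are given on the log2 scale as double over SIN3, and a row was counted as higher or lower at 1.5-fold.

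SIN3 is the scaffold of a complex that carries histone deacetylases and, in one of its forms, a histone H3 lysine demethylase, and it regulates genes of metabolism and of the cell cycle in S2 cells. Sam-S encodes S-adenosylmethionine synthetase, which joins methionine to ATP. The product, S-adenosylmethionine, is the methyl donor for histones, RNA and many metabolites, and its use returns homocysteine to the methionine cycle or to transsulfuration.

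Both targeted genes were examined first. Sam-S (106903 to 114432 on chromosome 2L, build dm3) stood at 240 FPKM in the GFP group, 484 in the SIN3 group, 61.7 in the SAM-S group and 90.2 in the double group. It was high in the SIN3 group and low in both groups given Sam-S dsRNA, and it was 5.37-fold lower in the double than in the SIN3 group (log2 ratio -2.42, 95% interval -2.93 to -1.92). Sin3A (2R, 8459617 to 8480397) stood at 67.9 FPKM in the GFP, 61.7 in the SIN3, 70.9 in the SAM-S and 64.0 in the double group. The Sin3A row was thus at nearly the same level in all groups, and its double over SIN3 log2 ratio was 0.05 (-0.56 to 0.67). The mRNA level does not check the Sin3A dsRNA, and the groups are named here by their labels. Of 24 rows of hemocyte markers, 20 stood at 1 FPKM or more in the GFP group, against 3 of 6 neuron, 1 of 10 muscle, 9 of 13 germline and 1 of 13 fat body and gut rows. In bulk samples, fewer cells of a type and less RNA per cell cannot be told apart.

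Across all rows the double and the SIN3 group lay close together. The median log2 ratio was -0.02, the quartiles were -0.16 and 0.14, and the 1st and 99th percentiles were -0.87 and 0.93. At 1.5-fold, 243 rows (3.04%) were higher and 249 rows (3.12%) were lower in the double group, or 6.16% in all. A ratio above 0 was held by 46.8% of rows and a ratio below 0 by 53.2%. At 2-fold the counts were 70 and 49.

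An approximate test was made from the authors' deposited statistics. A standard error was taken from each table as the log2 fold change over the statistic, and the standard errors of both tables were summed in squares. The GFP group enters both although it is not in the ratio, so these errors are too large, with a median of 0.33 on the log2 scale. Of 7710 rows with a usable error, 2 rose (0.0259%) and 8 fell (0.104%) at an adjusted p under 0.05, and 140 had an unadjusted p under 0.05. With the summed variance halved, as if the GFP group made up an equal part of each, 39 rows (0.506%) passed, 13 higher and 26 lower. Whether such p-values reflect the spread between samples cannot be told from combined replicates, and "rose" and "fell" below refer to the first version of this test.

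The 10 rows that passed were Sam-S, 7 rows of heat shock genes, the enhancer of split gene E(spl)mbeta-HLH, and a merged row of Eip71CD, Z600 and gdl. The other members are described by their values and by counts at 1.5-fold.

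The highest ratio outside the small RNA genes belonged to the merged row Eip71CD,Z600,gdl (3L, 15502161 to 15506302). Eip71CD encodes a methionine sulfoxide reductase, an enzyme that restores oxidised methionine, and was named as an ecdysone-induced gene. Z600 encodes an inhibitor of mitotic entry in the embryo, and gdl is the gonadal gene. The row stood at 54.7 FPKM in the GFP, 84.4 in the SIN3, 607 in the SAM-S and 839 in the double group. It was high only in the groups given Sam-S dsRNA, and it rose 9.93-fold from the SIN3 to the double group (log2 ratio 3.31, 2.76 to 3.86). The reads of the 3 genes cannot be told apart. SelR, which encodes the other class of methionine sulfoxide reductase, stood at 23.6, 19.8, 24.0 and 22.2 FPKM in the GFP, SIN3, SAM-S and double groups (log2 ratio 0.16, -0.55 to 0.88).

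Around Sam-S, the other genes of the methionine cycle and transsulfuration moved little. Of 16 tested rows, 1 was higher and 2 were lower at 1.5-fold (3.04% and 3.12% of all rows), and the list median was 0.02. Besides Sam-S, the lower row was CG6188, which stood at only 0.940 FPKM in the double group. The higher row was Ahcy13, which encodes the hydrolase that clears S-adenosylhomocysteine, the product of every methylation reaction. Ahcy13 (X, 15344294 to 15346679) stood at 154 FPKM in the GFP, 223 in the SIN3, 212 in the SAM-S and 340 in the double group. The double group was thus the highest of the 4, with a log2 ratio to the SIN3 group of 0.61 (0.12 to 1.09), which did not pass either version of the test. Cbs, the entry enzyme of transsulfuration, had a ratio of 0.37 (-0.22 to 0.96). Gclm, the modifier subunit of the enzyme that starts glutathione synthesis, had a ratio of 0.30 (-0.36 to 0.96), and Gclc, its catalytic subunit, had 0.01. None of 10 folate and thymidylate rows and none of 4 polyamine rows passed 1.5-fold, and their medians were -0.01, which became 0.00 without scaling of the tables, and 0.07. SamDC, which decarboxylates S-adenosylmethionine for polyamine synthesis, had a ratio of -0.16.

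The heat shock genes were lower in the double than in the SIN3 group. Their products are chaperones that bind unfolded proteins, and the inducible members are switched on by the heat shock factor Hsf. Of 23 tested rows of the list, 13 were lower at 1.5-fold and 0 were higher, where 3.12% of all rows were lower. The list median was -0.80, against -0.02 over all rows.

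The small heat shock genes, most of which are neighbours on 3L, were all lower. Hsp27 (3L, 9377163 to 9378382) stood at 447 FPKM in the GFP, 208 in the SIN3, 266 in the SAM-S and 66.6 in the double group. Hsp26 (3L, 9369518 to 9370475) stood at 667, 315, 454 and 106 FPKM in the same order. The order of the groups was the same for both genes, with the double group lowest and the GFP group highest. Hsp27 fell 3.13-fold from the SIN3 to the double group (log2 ratio -1.65, -2.17 to -1.12). Hsp26 fell 2.98-fold (log2 ratio -1.57, -2.09 to -1.06). Hsp23 and the merged row Hsp22,Hsp67Bb also fell, from 167 to 73.8 FPKM and from 139 to 53.1 FPKM, with log2 ratios of -1.18 and -1.39. Hsp67Bc, at 2.51 FPKM in the SIN3 and 0.889 in the double group, and Hsp67Ba, at 0.410 and 0.203, had ratios of -1.50 and -1.01 but no usable test. In all 6 rows of small heat shock genes the groups were ordered double, SIN3, SAM-S and GFP from low to high. The share of all rows with this order was not computed.

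The Hsp70 genes and Hsp68, which encode the inducible ATP-driven chaperones, showed the same order in 5 of 6 rows. Hsp68 (3R, 19880113 to 19883032) stood at 346 FPKM in the GFP, 167 in the SIN3, 244 in the SAM-S and 56.8 in the double group. It fell 2.94-fold from the SIN3 to the double group (log2 ratio -1.55, -2.15 to -0.96). Hsp70Bb (3R, 8331515 to 8334105) stood at 70.2, 36.0, 52.5 and 12.4 FPKM and fell by 1.54 on the log2 scale. Hsp70Bc, at 22.8, 13.5, 8.92 and 2.66 FPKM in the GFP, SAM-S, SIN3 and double groups, fell by 1.74. Hsp70Ba stood at 9.57 FPKM in the GFP, 4.12 in the SIN3, 10.4 in the SAM-S and 1.52 in the double group, so that its SAM-S value was not below its GFP value. Its log2 ratio of -1.44 (-2.33 to -0.54) passed only with the halved variance. The merged row Hsp70Aa,Hsp70Ab had a ratio of -1.33 and no usable test, and Hsp70Bbb, at 1.90 and 1.57 FPKM, had a ratio of -0.28. Hsp70 copies are near-identical, and how their shared reads were divided is not given in the sources used here, so the values of single copies are uncertain. The noncoding row alphagamma-element:CR32865 (3R, 8301058 to 8303989), which lies between Hsp70Ba and the other Hsp70B genes and was picked once its values were known, had 75.1 FPKM in the GFP, 38.2 in the SIN3, 59.2 in the SAM-S and 20.9 in the double group.

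The other chaperone rows and Hsf mostly did not share this difference in size. Of the 11 other rows of the list, 2 were lower at 1.5-fold (3.12% of all rows) and 9 were not past it. The median of the 11 rows was -0.13. The lower rows were stv, which encodes a co-chaperone of the BAG family, at 61.5 FPKM in the SIN3 and 35.4 in the double group, and DnaJ-1, which encodes an Hsp40 co-chaperone, at 238 and 138. Hsc70-4, the constitutive cytosolic partner of the Hsp70 proteins, stood at 2131 and 2126 FPKM (log2 ratio -0.00, -0.66 to 0.65). Hsp83, the fly Hsp90, stood at 1811 and 1459 FPKM (-0.31, -0.99 to 0.37). Hsf itself stood at 71.7 and 65.6 FPKM (-0.13, -0.62 to 0.36). Of 16 rows of the unfolded protein response, which monitors the endoplasmic reticulum, none passed 1.5-fold, and the transcription factor gene Xbp1 had the highest ratio, 0.47 (-0.03 to 0.98).

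**Figure D1:**
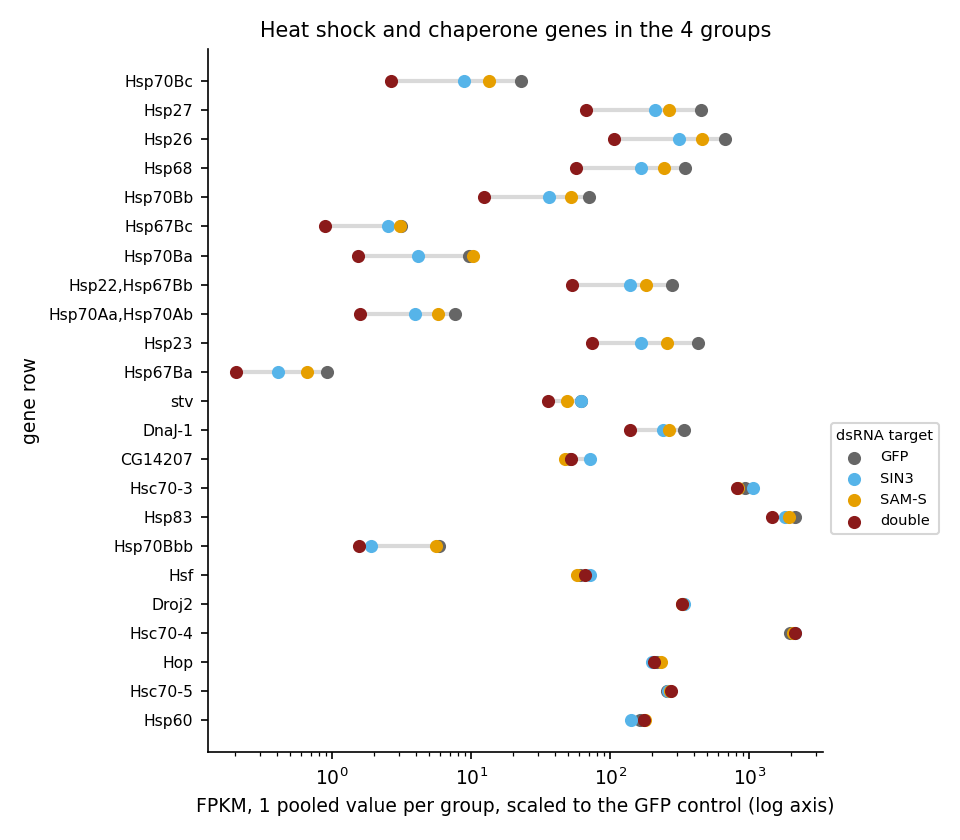
Pooled FPKM of the 23 tested heat shock and chaperone rows on a log axis, 1 point per group (GFP, SIN3, SAM-S, double) and no error bars because replicates were combined. The double group is the leftmost point in the inducible rows, for example 66.6 FPKM for Hsp27 against 208 in the SIN3 group, while rows such as Hsc70-4 have all 4 points together.

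Genes of ribosome production leaned higher in the double group. The list of small nucleolar ribonucleoprotein (snoRNP) and rRNA synthesis genes had a median of 0.31, and 25 of its 27 rows had a ratio above 0 (46.8% of all rows), but only 2 passed 1.5-fold (7992 rows in all, 3.04% higher). These were Fib, which encodes fibrillarin, the enzyme that methylates rRNA with S-adenosylmethionine as donor, and hoip, which encodes an RNA-binding protein of the same particles. Fib (2R, 18960420 to 18962243) stood at 83.6 FPKM in the GFP, 88.0 in the SIN3, 136 in the SAM-S and 158 in the double group. Hoip (2L, 9699791 to 9700459) stood at 255.2, 239, 368 and 443 FPKM. Both genes were high in the groups given Sam-S dsRNA, and their ratios of 0.85 (0.32 to 1.37) and 0.89 (0.37 to 1.40) passed only with the halved variance. Nop56 and nop5, which encode the other core proteins of box C/D particles, had ratios of 0.30 and 0.34. The 5 rows of RNA polymerase I subunits, a grouping made after the values were seen, had ratios from 0.23 to 0.41.

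The ribosomal proteins themselves were spread around 0. Of 76 cytoplasmic rows, 3 were higher and none was lower at 1.5-fold (3.04% and 3.12% of all rows), and the median was 0.05. RpL8 (3L, 2587456 to 2588883), a protein of the large subunit, stood at 594 FPKM in the GFP, 499 in the SIN3, 846 in the SAM-S and 931 in the double group, with a ratio of 0.90 (0.37 to 1.43) that passed only with the halved variance. RpL26 had a ratio of 0.64 (0.13 to 1.15), and RpS19b, at 3.07 FPKM in the double group, had 0.60. The 26 tRNA synthetase rows had a median of 0.02 with none past 1.5-fold, and 16 of them were above 0. Among 24 rows of the integrated stress response, TORC1 and amino acid transport, only Sesn passed 1.5-fold. Sesn encodes sestrin, a restraint on TORC1, and stood at 26.1 FPKM in the GFP, 7.78 in the SIN3, 12.9 in the SAM-S and 4.62 in the double group (log2 ratio -0.75, -1.39 to -0.11). Thor, the fly 4E-BP that restrains cap-dependent translation, stood at 257 FPKM in the GFP, 460 in the SIN3, 281 in the SAM-S and 327 in the double group (-0.49, -0.97 to -0.01). Of 29 proteasome rows, 26 were above 0 (46.8% of all rows) with a median of 0.18 and none past 1.5-fold.

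Of 45 respiratory chain rows, 41 had a ratio above 0, where 46.8% of all rows did, and the median was 0.20. At 1.5-fold 4 were higher, against 3.04% of all rows, and none was lower. The median transcript length of the list was 837 bases, within the shortest quintile of all rows, where 10.9% of rows passed 1.5-fold. The part of length in these ratios was not tested. RFeSP (2L, 1611410 to 1614160), the Rieske iron-sulphur protein of complex III, stood at 43.4 FPKM in the GFP, 42.7 in the SIN3, 58.8 in the SAM-S and 82.1 in the double group. Its double value was the highest of the 4, with a ratio of 0.94 (0.29 to 1.60) that passed with the halved variance only. The others were sun, which encodes the epsilon subunit of ATP synthase, at 0.74 (-0.19 to 1.66), l(2)35Di, at 0.68 (0.06 to 1.31), and levy, a cytochrome c oxidase subunit gene, at 0.61 (-0.58 to 1.80). The 73 mitochondrial ribosomal protein rows had a median of 0.11, and mRpS14, at 0.88 (-0.16 to 1.92), was the only row past 1.5-fold.

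Glycolysis and the tricarboxylic acid cycle showed no common direction. In glycolysis, 1 of 13 rows was lower at 1.5-fold (3.12% of all rows), 8 were above 0 and the median was 0.02. This row was Pgm, which encodes phosphoglucomutase and stood at 58.4 FPKM in the GFP, 102 in the SIN3, 48.0 in the SAM-S and 64.1 in the double group (-0.67, -1.27 to -0.08). In the tricarboxylic acid cycle, 1 of 18 rows was lower, 8 were above 0 and the median was -0.05. The lower row, CG1544, a member of the 2-oxoglutarate dehydrogenase family, stood at 15.4, 12.9, 9.33 and 6.80 FPKM (-0.92, -1.55 to -0.29). Both genes were lower in each Sam-S dsRNA group than in its partner without it. Rows outside these lists that passed with the halved variance and were named after their values were seen included Pdk, the kinase that inhibits pyruvate dehydrogenase, at -0.82 (-1.35 to -0.30), and Pepck, a gluconeogenic enzyme gene, at -0.73 (-1.22 to -0.24). In lipid synthesis, 1 of 22 rows was higher and 2 were lower (3.04% and 3.12% of all rows). Cct2, a gene of phosphatidylcholine synthesis, stood at 12.3 FPKM in the GFP, 14.7 in the SIN3, 7.53 in the SAM-S and 8.23 in the double group (-0.83, -1.56 to -0.11). The other lower row, CG4500, was at 0.162 FPKM in the double group, and the higher row, v(2)k05816, was at 2.14 FPKM with a ratio of 1.45.

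Hemocyte markers were mixed. Of 21 tested rows, 3 were higher and 1 was lower at 1.5-fold (3.04% and 3.12% of all rows), 13 were above 0 and 8 below, and the median was 0.14. The 3 higher rows encode matrix proteins that hemocytes secrete. Cg25C, a collagen IV chain gene, stood at 167 FPKM in the GFP, 119 in the SIN3, 262 in the SAM-S and 210 in the double group (0.82, 0.18 to 1.46). Vkg, the partner chain, stood at 125, 78.8, 189 and 121 FPKM (0.61, -0.02 to 1.25). Both collagen genes were low in the SIN3 group and were higher again in the double group, and neither passed either version of the test. LanB2, a laminin chain gene, had a ratio of 0.59, and all 7 basement membrane rows, grouped after the values were seen, had ratios above 0, from 0.18 to 0.82, with none past either version of the test. Mcr, which encodes a complement-related protein, was the lower row, at 114 FPKM in the SIN3 and 70.6 in the double group (-0.69, -1.18 to -0.20). The summed FPKM of the 24 hemocyte marker rows was 28543 in the GFP, 13271 in the SIN3, 25755 in the SAM-S and 12999 in the double group, and most of it came from Nplp2. Without Nplp2 the sum was higher in the double group, at 2950, than in the SIN3 group, at 2602. The part of cell state in these gene groups was not tested.

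In the list of Notch signalling, 3 of 17 rows were higher at 1.5-fold and none was lower (3.04% and 3.12% of all rows). The higher rows were enhancer of split genes, which are direct targets of Notch. E(spl)mbeta-HLH (3R, 21830768 to 21831745), a transcriptional repressor gene, stood at 7.66 FPKM in the GFP, 2.44 in the SIN3, 25.5 in the SAM-S and 10.8 in the double group. It was lowest in the SIN3 group and highest in the SAM-S group, and it rose 4.42-fold from the SIN3 to the double group (log2 ratio 2.15, 1.14 to 3.15). The other enhancer of split rows past 1.5-fold, E(spl)malpha-BFM and E(spl)m3-HLH, lay at 0.268 and 0.503 FPKM in the double group, and with 1 FPKM added their ratios of 1.73 and 1.10 became 0.23 and 0.28. The list median was 0.08, which became -0.12 over the rows of at least 5 FPKM in the higher group, and the receptor N had a ratio of 0.18. In the ecdysone list, 3 of 15 rows were higher and none was lower, and the median of 0.16 became 0.04 over the rows of at least 5 FPKM. Beside the Eip71CD row, these were Eip75B, a nuclear receptor gene, at 28.5 FPKM in the SIN3 and 46.1 in the double group (0.69, 0.17 to 1.22), and ImpE3, at 1.43 and 3.19 FPKM with a 95% interval that covered 0. EcR, the receptor of the hormone, had a ratio of 0.16.

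Detoxification and defence genes were mixed. Of 28 glutathione and antioxidant rows, 1 was higher and 3 were lower at 1.5-fold (3.04% and 3.12% of all rows), with a median of 0.05. The only row of these at more than 5 FPKM was Gs2, at 106 FPKM in the SIN3 and 70.2 in the double group (-0.59, -1.10 to -0.09). It encodes a glutamine synthetase and so is not a glutathione gene, although the list held it. The other lower rows were GstD4 and GstE5, at 0.455 and 1.34 FPKM in the double group. Of 26 cytochrome P450 rows, 2 were higher and 2 were lower, and 19 were below 0 (53.2% of all rows). Their median was -0.20, and it was -0.37 over the 16 rows of at least 5 FPKM in the higher group. Cyp12a5, at 20.5 and 12.2 FPKM (-0.75, -1.34 to -0.15), and Cyp6a9, at 11.6 and 7.22 FPKM, were the lower rows, while the higher rows Cyp4d1 and Cyp4ac1 were below 1 FPKM. Of 24 immune effector rows, 1 was lower, PGRP-SD, at 0.555 FPKM in the double group.

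Chromatin genes were within 1.5-fold. None of 33 rows of histone methylation and none of 13 rows of the SIN3 complex passed it, and the medians were 0.01 and 0.10. Among them lid, which encodes a histone demethylase found with SIN3, had a ratio of 0.19 (-0.29 to 0.67), and Dpy-30L1, of the histone methyltransferase complexes, lay just inside the limit at 0.58 (-1.27 to 2.43). None of 15 RNA interference rows, whose products handle the dsRNA itself, passed 1.5-fold. AGO2, the slicer of that pathway, stood at 146 FPKM in the SIN3 and 113 in the double group (-0.37, -0.96 to 0.21). None of 43 DNA replication rows and none of 32 mitosis rows passed 1.5-fold, although 38 and 27 of them had ratios below 0 (53.2% of all rows), with medians of -0.15 and -0.17. The lowest replication row was CycE, the cyclin of entry into S phase, at 24.3 FPKM in the SIN3 and 16.4 in the double group (-0.57, -1.10 to -0.05). The 11 germline marker rows had a median of -0.16 with none past 1.5-fold.

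**Figure D2:**
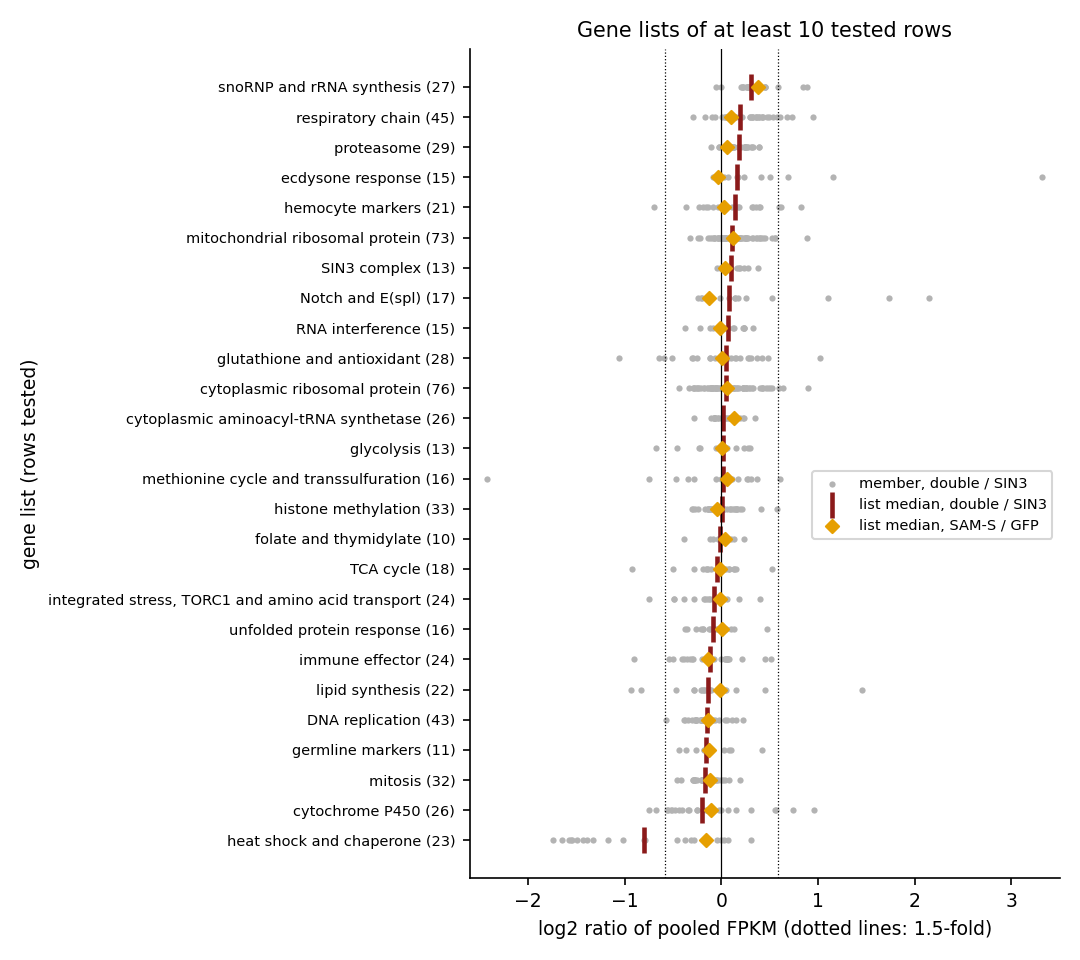
Log2 ratio of pooled FPKM for the members of each gene list with at least 10 tested rows, with grey points for double over SIN3, a red bar for their median and a yellow diamond for the median of SAM-S over GFP. Dotted lines mark 1.5-fold. The heat shock median lies at -0.80, apart from the other medians, which reach from -0.20 to 0.31.

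Outside the lists, 6 of the rows with large ratios are described here. They were picked after their values were seen, leaving out small RNA genes. The noncoding row CR43264 (X, 5712592 to 5734856) stood at 238 FPKM in the GFP, 377 in the SIN3, 460 in the SAM-S and 733 in the double group (0.96, 0.37 to 1.55). It was higher with each dsRNA and highest with both. Picot (2R, 12542820 to 12555183), which encodes a protein of the inorganic phosphate cotransporter family, stood at 46.2, 62.3, 34.4 and 30.3 FPKM in the GFP, SIN3, SAM-S and double groups (-1.04, -1.57 to -0.51). The transcription factor gene tx stood at 61.2, 68.4, 45.7 and 34.1 FPKM and was 2.01-fold lower (interval on the log2 scale -1.54 to -0.47). Both were lowest in the double group. CG15695 and CG31777 were low in the SIN3 group, at 9.98 and 15.2 FPKM, and higher in the double group, at 20.4 and 37.8 FPKM, with ratios of 1.03 and 1.31. Npc2g, of a family of sterol-binding proteins, stood at 11.6 FPKM in the GFP, 5.62 in the SIN3, 23.02 in the SAM-S and 14.4 in the double group (1.36, 0.36 to 2.36). These 6 rows passed with the halved variance only. Some rows with ratios as large are not among them. CG9034, at 1.13, passed neither version of the test, and CG11686, at -1.22, had no usable test.

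**Figure D3:**
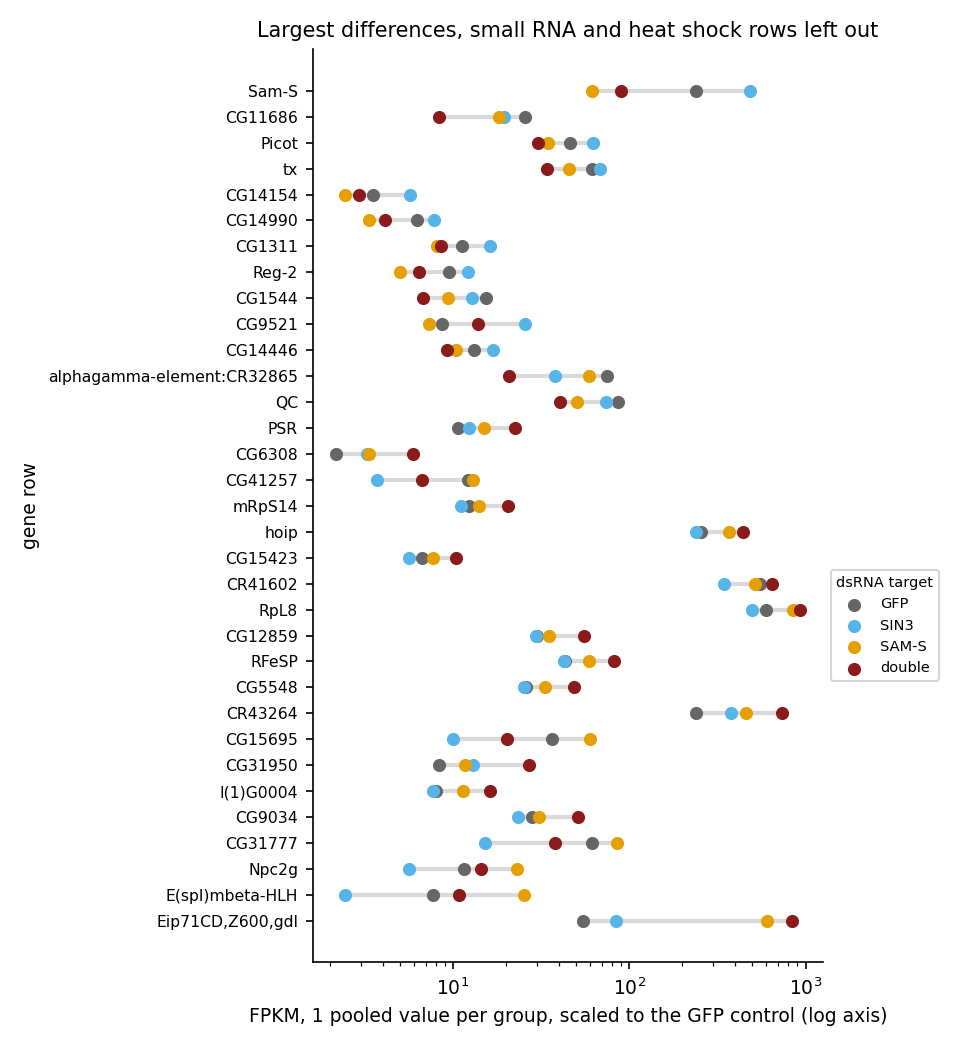
Pooled FPKM on a log axis in the 4 groups for the rows with the lowest (top) and highest (bottom) ratio of double over SIN3, with heat shock and small RNA rows left out and no error bars because replicates were combined. The Eip71CD row reaches 839 FPKM in the double group against 84.4 in the SIN3 group, and Sam-S lies at 90.2 against 484.

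Sam-S dsRNA was also given without Sin3A dsRNA, and that comparison, SAM-S over GFP, shares no sample with double over SIN3. Over 6601 rows of at least 5 FPKM in the highest and 1 FPKM in the lowest of the 4 groups, with small RNA genes left out, the ratios of these comparisons had a Pearson correlation of 0.75 and a Spearman correlation of 0.73 across genes. Genes are not independent replicates, and the points share gene length, base composition and the preparation of the groups, for which the labels give no batch. Without the rows of Sam-S, Eip71CD and the heat shock genes, the Pearson correlation was 0.74 over 6587 rows. The median size of the log2 ratio was 0.14 in double over SIN3 and 0.10 in SAM-S over GFP.

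Rows past 1.5-fold in double over SIN3 leaned the same way in SAM-S over GFP. Of 102 such rows that were higher, 100 (98.0%) were above 0 in SAM-S over GFP, where 46.0% of all 6601 rows were. Of 102 that were lower, 101 were below 0. The median ratios of the higher rows were 0.71 in double over SIN3 and 0.43 in SAM-S over GFP. Those of the lower rows were -0.71 and -0.40. Only 19 rows in each direction also passed 1.5-fold in SAM-S over GFP, in which 28 rows (0.424%) were higher and 43 (0.651%) were lower in all. The 102 rows in each direction were picked by double over SIN3, which by itself favours larger ratios there than in SAM-S over GFP. The Eip71CD row had ratios of 3.31 and 3.47, E(spl)mbeta-HLH 2.15 and 1.73, CR43264 0.96 and 0.95, and Fib 0.85 and 0.70. The list medians for snoRNP and rRNA synthesis were 0.31 and 0.38, for DNA replication -0.15 and -0.13, and for mitosis -0.17 and -0.12. Other list medians differed in sign or size. For tRNA synthetases they were 0.02 and 0.14, and 25 of 26 rows were above 0 in SAM-S over GFP. They were 0.08 over 17 rows and -0.13 over 16 rows for the Notch list, and 0.16 and -0.03 for the ecdysone list. The Notch and ecdysone contrasts depend on low-level rows. With at least 5 FPKM in the higher group, their double over SIN3 medians were -0.12 and 0.04. That filter was not applied to SAM-S over GFP. These differences between list medians were not tested.

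**Figure D4:**
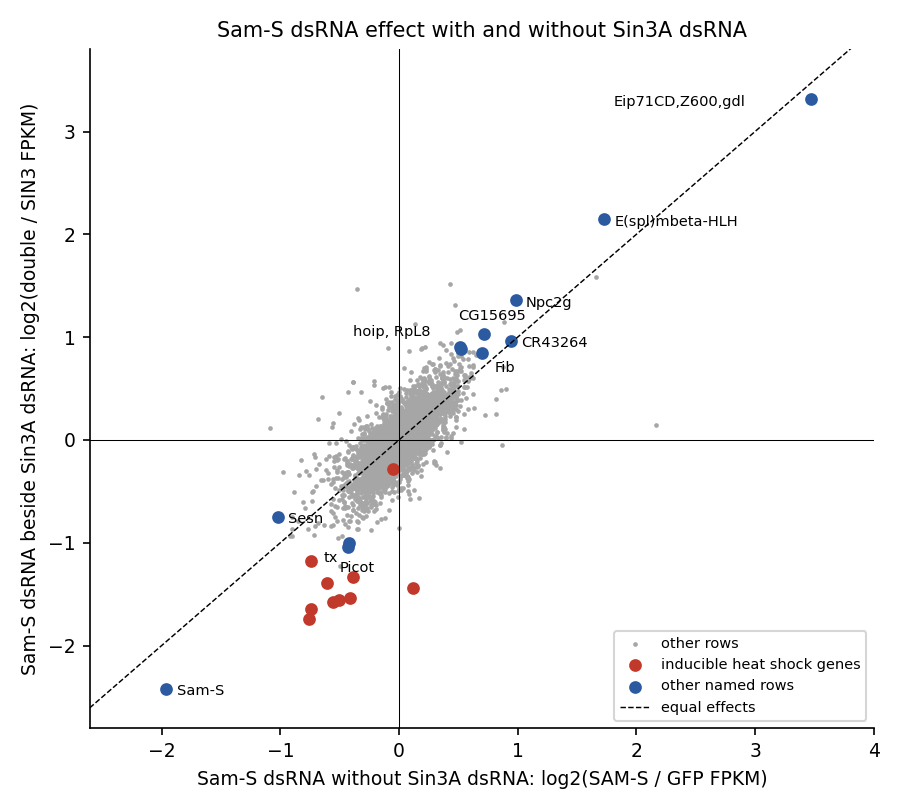
Log2 ratio of SAM-S over GFP (horizontal) and of double over SIN3 (vertical) for 6601 expressed rows, 1 point per row, with heat shock rows in red, other named rows in blue and a dashed line at equal ratios. The Eip71CD row lies near the dashed line at 3.47 and 3.31, and most heat shock rows lie below it, such as Hsp26 at -0.55 and -1.57.

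The difference between the ratios of the same gene was tested with the standard errors of the 3 tables, again with the GFP group counted although it partly cancels. No row of 7543 passed (0%) by this approximate test with Benjamini-Hochberg adjustment, and 11 had an unadjusted p under 0.05. With the halved variance 3 rows (0.0398%) passed, all of them heat shock genes: Hsp70Ba, Hsp70Bb and Hsp26. Each of the 4 groups enters this difference once. If the groups vary alike, halving removes more than the excess of the GFP group, so this version is too lenient. For Hsp26 the ratio was -0.55 in SAM-S over GFP and -1.57 in double over SIN3, a difference of -1.02 (-1.64 to -0.40). The difference was below 0 in all 6 rows of small heat shock genes, from -1.47 to -0.44, and in all 6 rows of Hsp70 and Hsp68 genes, from -1.55 to -0.23. With the summed variance, 3 and 4 of these rows had an unadjusted p under 0.05 in the approximate test. Hsp67Bc and Hsp67Ba lay under 1 FPKM in the double group, and the Hsp70 copies share reads. Genes of a family are not independent replicates, and the share of all rows with a difference below 0 was not computed. For the list as a whole the median was -0.16 in SAM-S over GFP and -0.80 in double over SIN3. For the Eip71CD row the difference was -0.16 (-0.82 to 0.50), and for Sam-S it was -0.46 (-1.09 to 0.16). Thor had a ratio of 0.13 in SAM-S over GFP and -0.49 in double over SIN3. The difference of -0.62 (-1.20 to -0.03) passed in neither version.

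Rows of small RNA genes, mainly small nucleolar RNAs, filled many of the outermost places. Of 96 such rows, 25 were higher and 27 were lower at 1.5-fold, or 54.2%, against 5.57% of the other 7896 rows. Their median standard error was 4.68 on the log2 scale, against 0.33 for the others, and they made up 7 of the 12 lowest and 8 of the 12 highest rows with at least 5 FPKM in the higher and 1 FPKM in the lower group. Of the 20 rows with a value of 0 in a column used, 19 were small RNA rows, and 12 were listed at 0 in the SIN3 group only. Such values are not reported gene by gene.

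The ratio moved little with transcript length and level. In single-gene rows without small RNA genes, matched to a transcript length of the current annotation in 98.7% of cases, the median ratio was 0.04 in the shortest quintile and -0.04 in the longest. The share of rows past 1.5-fold was 10.9% in the shortest and 3.00% in the longest quintile, and it was 17.7% in the quintile of lowest FPKM against 1.94% to 3.87% in the others. Most single-gene rows past 1.5-fold thus lay in the quintile of lowest FPKM. The median ratio was 0.02 on the X chromosome and between -0.04 and -0.02 on the others.

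**Figure D5:**
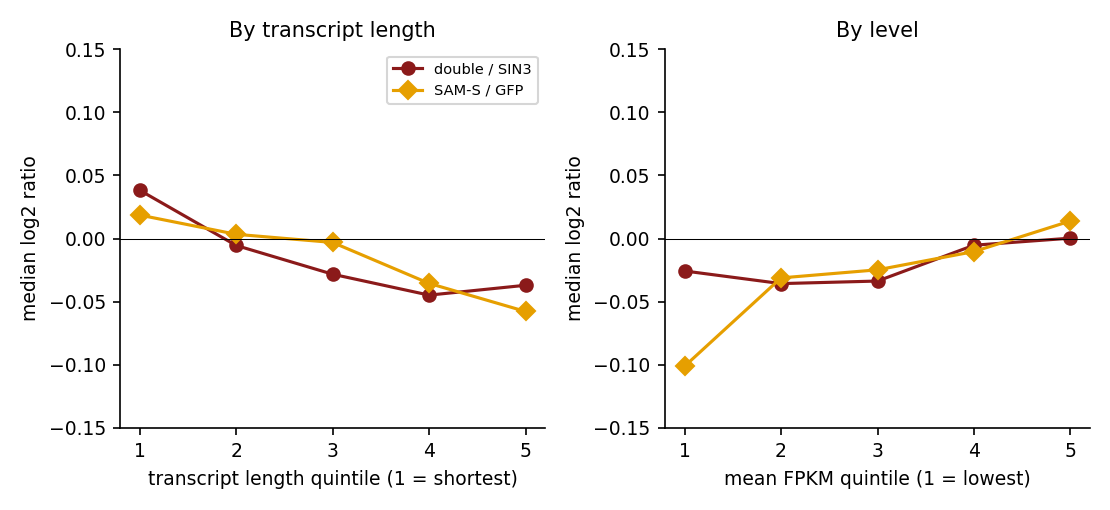
Median log2 ratio of double over SIN3 (red circles) and of SAM-S over GFP (yellow diamonds) in quintiles of transcript length (left) and of mean FPKM (right), in single-gene rows without small RNA genes. The double over SIN3 medians stay between -0.04 and 0.04 in every quintile.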

How the data were processed

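RNA-seq was measured in 4 groups of 3 S2 cell samples. The submitters' processing notes name bcl2fastq, Cuffdiff and build dm3, without versions. The aligner, annotation and strand setting: not given in the sources used here. The authors deposited 1 FPKM per gene row and group, per the file headers. Beside it they deposited Cuffdiff's test statistic, a score without fixed limits, and for each knockdown against GFP a p-value with its q-value. Per the labels, replicates were combined. Read counts are not analysed here, so depth is unknown and counting intervals are left out.

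The tables were matched on locus and symbols (14444 rows), after 4 symbols that had turned into dates were restored and 21 rows of repeated key were left out. The GFP columns of the SIN3 and double tables differed by more than 1% from their common factor in 21 rows. The 309 merged rows are named with all symbols. Coordinates follow the files (dm3), with 1 added to each start. Log2 ratios use no pseudocount.

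For the approximate test, each table's standard error was its log2 fold change over its statistic and over the square root of 3. It was used where the rescaled statistic tracked the normal quantile of the deposited p within 0.3 and the error was at least 0.1 (7710 rows). The quantile was a median of 1.74 times the statistic, near the root of 3. Intervals are 95% intervals from this error. P-values were adjusted by Benjamini-Hochberg over all rows. The procedure was run on simulated data with noise drawn at the halved variance. That run cannot tell whether the errors match the spread between samples, and the difference of ratios was not simulated. The adjustment for the difference of ratios covers 7543 of the 7813 rows tested in all 3 tables.

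Named rows are Sin3A and Sam-S, the 12 highest and 12 lowest with at least 5 and 1 FPKM in the higher and lower group, up to 4 members per list and direction, 5 per direction past 1.5-fold alike in SAM-S over GFP, and 5 per direction with the largest difference. Because small RNA rows filled many of these places, the 20 highest and 20 lowest other rows and those passing a version of the test were added after their values were seen. Low-level rows under these rules are counted, and not all rows, low-level or not, are named. The members and the 31 gene lists were chosen with earlier results of these data known, and no list is tested as a set. Python 3.11.15 with pandas 2.3.3, numpy 2.4.6, scipy 1.17.1 and matplotlib 3.10.9 was used. Alternatives changed the scaling, the fold, the pseudocount, the filter on low values, the rows and the variance.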

Additional observations from a re-analysis of the deposited data

Results flagged for a closer look

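Double over SIN3 differed from SAM-S over GFP in 3 heat shock rows by the approximate test with the halved variance. No row passed with the summed variance. The halved variance is too small for this difference if all groups vary alike. The log2 ratio of double over SIN3 minus that of SAM-S over GFP was -1.55 for Hsp70Ba, -1.12 for Hsp70Bb and -1.02 for Hsp26. Hsp70Ba stood at 1.52 FPKM in the double group, and how reads shared by the Hsp70 copies were divided is not given in the sources used here. Each group has 1 pooled value, so no count of samples stands behind these differences.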

How the results depend on the processing

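The 243 higher and 249 lower rows became 70 and 49 at 2-fold, 139 and 119 with 1 FPKM added, 114 and 121 with at least 5 FPKM in the higher group, and 91 and 98 when small RNA rows were also left out, an alternative chosen after seeing the data. Without scaling of the tables they were 264 and 234, and with the knockdown columns scaled to a median ratio of 0 they were 265 and 230, which moved all ratios by 0.02. The 10 rows of the approximate test became 39 with the halved variance and 2 with the statistic taken as deposited. Of 488 values of 122 named rows under 4 other settings, 4 moved by more than their error, all with 1 FPKM added, and 0 of those past 1.5-fold changed sign. Of 277 list medians, 13 moved by 0.1 or more; the heat shock median was -0.62 with at least 5 FPKM. No paired analysis was possible because the deposited values pool the 3 replicates of a group, and for the same reason leaving out each replicate was not run. Ratios of rows under a few FPKM are the least certain.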
